A study of Arabidopsis thaliana with 12 samples.

Results

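Plants repair the RNA of their plastids and mitochondria by C-to-U editing, and each edited site is recognised by a nuclear-encoded pentatricopeptide repeat (PPR) protein of the PLS class. Such a protein binds the bases just upstream of its site with its repeats. It carries at its C-terminus either E domains alone or E domains followed by a DYW domain, the cytidine deaminase that ends in the residues aspartate, tyrosine and tryptophan or close variants of them. DYW2 is a short DYW protein and NUWA (also called OTP100) a PPR protein without one, and both are known as partners of editing factors that lack a DYW domain of their own, among them CLB19 and SLO2.

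The 36 loci described here were chosen as a list of site-specific PLS-class editing factors, 17 serving the plastid and 19 the mitochondrion, out of 33602 gene models counted. Their transcripts were measured by RNA sequencing in 12 Arabidopsis thaliana libraries of 4 groups with 3 libraries each: homozygous and heterozygous plants for a T-DNA knock-out insertion in DYW2 (dyw2), and homozygous and heterozygous plants for one in NUWA (nuwa). All plants grew on soil, and every library mixed flower bud, rosette and stem RNA at the stage when flower buds first show, so a change can reflect fewer cells of a type or less RNA per cell, which bulk samples cannot tell apart. All plants carry an insertion, since the reference of each mutant is its own heterozygote and not a wild type. The labels call the libraries of a group biological replicates but do not say that each came from its own plants, so the spread that p-values rest on may in part be technical. The insertion alleles are not given either.

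For 2 libraries the labels contradict each other. The library titled dyw2 homozygous 2 has a nuwa genotype in its genotype field, and the library titled nuwa homozygous 3 has a dyw2 genotype. Groups below follow the titles, and counts without both libraries are given for the calls of the listed loci. Markers, protein ends, general factors and target transcripts are given by title only. In organelle shares of the counts, dyw2 homozygous 2 stood with the group of its title, at 31.1% plastid and 2.87% mitochondrial counts, against 26.6% and 32.5% plastid and 3.01% and 2.83% mitochondrial counts in replicates 1 and 3 of that group. The library nuwa homozygous 3 had 60.6% plastid and 0.586% mitochondrial counts, against 66.9% and 60.3% plastid and 0.49% and 0.538% mitochondrial counts in replicates 1 and 2 of its group. Transcript counts of the targeted genes do not check the labels. DYW2 stood at 10.3, 11.0 and 9.50 CPM (counts scaled to library size, here by the trimmed-mean method TMM) in dyw2 homozygous libraries, against 7.08, 5.57 and 6.66 CPM in dyw2 heterozygous libraries. NUWA stood at 0.761, 1.34 and 1.26 CPM in nuwa homozygous libraries, against 0.660, 0.351 and 0.905 CPM in nuwa heterozygous libraries. Neither transcript was lost in its own mutant, and the labels do not place the insertions relative to the counted exons.

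Libraries held 13329334 to 24632485 counts in dyw2 homozygous plants, 54220595 to 74179923 in dyw2 heterozygous plants, 37496733 to 68078412 in nuwa homozygous plants and 59478718 to 97804029 in nuwa heterozygous plants. Plastid genes took 26.6% to 32.5% of the counts in dyw2 homozygous libraries, against 57.2% to 63.5% in dyw2 heterozygous libraries. Mitochondrial genes took 2.83% to 3.01% in dyw2 homozygous libraries, against 0.322% to 0.385% in dyw2 heterozygous libraries. Many organ markers were lower as well, where 32.8% of all tested genes were called lower in dyw2. Of 15 tested flower bud markers of 17 listed, 12 were called lower in dyw2 homozygous plants, and their summed level was 7.91 to 13.2 CPM, against 46.1 to 157 CPM in dyw2 heterozygous plants. The markers TDF1, MS1, MS2 and A9 had 0 counts in all dyw2 homozygous libraries. Of 8 stem markers 4 were called lower, with sums of 5.21 to 10.8 CPM in dyw2 homozygous plants and 10.5 to 23.0 CPM in dyw2 heterozygous plants. All 4 rosette leaf markers were called lower, with sums of 2370 to 3900 CPM in dyw2 homozygous plants and 19700 to 27600 CPM in dyw2 heterozygous plants. In nuwa homozygous plants 0 of these markers were called, although the flower bud sums of replicates 1 and 2 were 11.6 and 4.56 CPM and that of replicate 3 was 87.8 CPM, against 89.4 to 160 CPM in nuwa heterozygous plants. The part of organ makeup in the results below was not tested. A fit with the flower bud level as a covariate is given beside them, but that level did not overlap between the 2 dyw2 groups, so the fit cannot set the level apart from the genotype there.

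The coding sequences show the ends by which these proteins differ. Translated from TAIR10.1 (RefSeq), 35 of the 36 loci encode a PPR or related helical-repeat protein of 500 to 995 residues, and 30 of these genes have a single exon. Of the 35, 17 end in the DYW signature, 14 end without it, and 4 have a DYW domain whose last codons are altered or missing. The last 45 coding bases, stop codon included, are printed 5′ to 3′ on the coding strand for a choice of members that changed and of each kind of end, and capitals mark the 3 codons of the DYW signature where it is present:
MEF7: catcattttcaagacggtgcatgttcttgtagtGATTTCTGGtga
MEF10: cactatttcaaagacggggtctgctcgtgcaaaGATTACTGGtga
MEF22: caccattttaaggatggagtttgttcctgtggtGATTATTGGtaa
OTP82: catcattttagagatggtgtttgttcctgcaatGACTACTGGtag
OTP81: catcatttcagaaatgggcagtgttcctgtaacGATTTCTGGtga
MEF9: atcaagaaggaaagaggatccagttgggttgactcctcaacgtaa
LPA66: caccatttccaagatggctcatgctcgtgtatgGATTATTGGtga
OTP85: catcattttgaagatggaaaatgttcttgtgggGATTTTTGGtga
DOT4: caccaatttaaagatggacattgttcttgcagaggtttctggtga
ECB2: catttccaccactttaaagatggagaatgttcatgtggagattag
CRR21: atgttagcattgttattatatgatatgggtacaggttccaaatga
CLB19: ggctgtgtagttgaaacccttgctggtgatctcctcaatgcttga
SLO2: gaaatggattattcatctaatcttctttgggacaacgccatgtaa

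These stretches lie at chr5:3102877-3102921 (-) for MEF7, chr3:3610077-3610121 (+) for MEF10, chr3:4057027-4057071 (-) for MEF22, chr1:2514374-2514418 (-) for OTP82, chr2:12715056-12715100 (+) for OTP81, chr1:22997826-22997870 (-) for MEF9 and chr5:19832969-19833013 (-) for LPA66. Those of OTP85, DOT4 and ECB2 lie at chr2:870235-870279 (+), chr4:10307421-10307465 (+) and chr1:5331667-5331711 (+). Those of CRR21, CLB19 and SLO2 lie at chr5:22561941-22561985 (-), chr1:1722981-1723025 (+) and chr2:5673542-5673586 (+). All are coding exon, with the strand in brackets. The altered ends are those of DOT4, OTP86 and AT3G03580, in which 1 of the 3 codons departs from the signature, and of ECB2, whose reading frame stops after its first codon.

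The annotation of one listed locus went against its label. AT3G26780 carries the symbol MEF14, a mitochondrial editing factor, but its annotated product is a phosphoglycerate mutase family protein without PPR repeats. The next locus, AT3G26782, overlaps it by 13 bases on the same strand at chr3:9850531-9852864 and encodes a repeat protein with the DYW signature. The ends of both, at chr3:9850233-9850277 (+) and chr3:9852638-9852682 (+), show the difference:
AT3G26780: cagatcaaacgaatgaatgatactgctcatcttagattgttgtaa
AT3G26782: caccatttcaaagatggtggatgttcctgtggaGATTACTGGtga
AT3G26780 is called by its locus below and is counted as listed, and AT3G26782 is given beside it as an addition made after the annotation was read.

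Transcripts of most editing factors were more abundant in homozygous dyw2 plants than in heterozygous ones. Of the 36 loci, 24 were called higher, 3 lower and 9 in neither direction (edgeR quasi-likelihood F-test over 21213 genes, adjusted p under 0.05). The background was large, with 62.9% of all tested genes called, 30.1% higher and 32.8% lower. All 36 passed the filter on low counts. OTP80, MEF3, MEF7 and AHG11 passed only through the dyw2 homozygous libraries, which favoured a rise there in advance. Of the other 32, 20 were called higher and 3 lower, and their median log2 fold change was 1.38, against -0.05 over all tested genes. Without both disputed libraries the counts by organelle stayed at 10 higher and 3 lower for the plastid and 14 higher and 0 lower for the mitochondrion, but the members differed. OTP84 (adjusted p = 0.0819) and MEF1 (0.0668) lost their calls, and OTP86 (0.047) and OTP87 (0.0403) gained one. With groups taken from the genotype field instead, 0 of the 36 loci and 0 of all 21213 tested genes were called.

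Grouped by organelle, 10 of 17 plastid factors were called higher and 3 lower, and 14 of 19 mitochondrial loci were called higher and 0 lower. Without the 4 loci that passed the filter only through dyw2 homozygous libraries, 9 of 16 plastid factors were called higher and 3 lower, with a median log2 fold change of 0.93, and 11 of 16 mitochondrial loci were called higher and 0 lower, with a median of 1.45. All 18 mitochondrial loci other than AT3G26780 had a positive log2 fold change, from 0.33 to 3.37, where 48.2% of all tested genes did. For 3 of these 18, MEF3, MEF7 (the value of 3.37) and AHG11, the filter favoured a positive sign in advance. Plastid values ran from -1.95 to 2.0. Summed over the 17 plastid factors, the transcripts made up 136, 129 and 159 CPM of the nuclear counts (nuclear CPM) in dyw2 homozygous libraries, against 99.1, 86.7 and 76.9 in dyw2 heterozygous libraries. The 18 mitochondrial factors without AT3G26780 summed to 86.7, 71.1 and 91.6 in dyw2 homozygous libraries, against 28.2, 18.7 and 23.3 in dyw2 heterozygous libraries. Neither sum overlapped between these groups. Whether the organelles differ in their change was not tested.

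**Figure D1:**
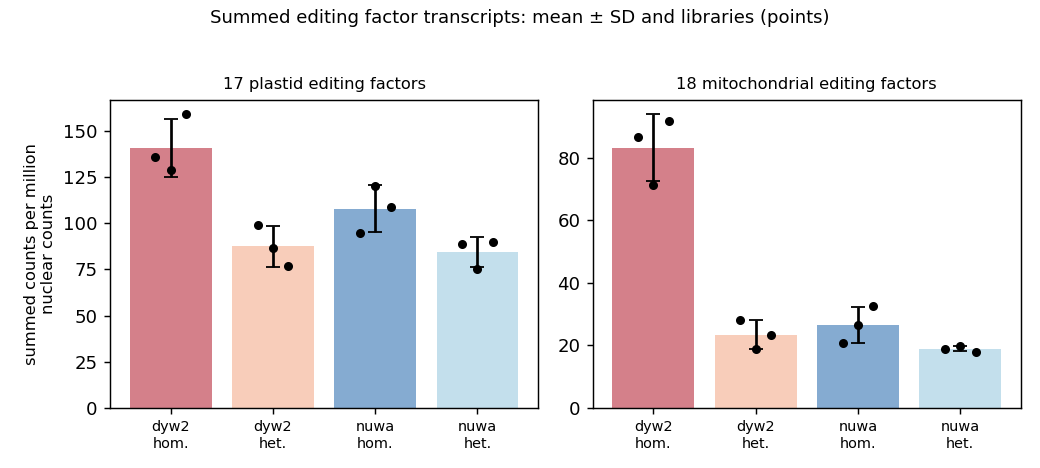
Summed counts of the 17 plastid factors (left) and of 18 mitochondrial factors, AT3G26780 left out (right), in nuclear CPM (counts scaled to the nuclear total) in each group (hom., homozygous; het., heterozygous). Bars are means, error bars SD and points the 3 libraries of a group, and the mitochondrial sum of dyw2 homozygous libraries, 83.1 ± 10.7, lies above the other mitochondrial sums.

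**Figure D2:**
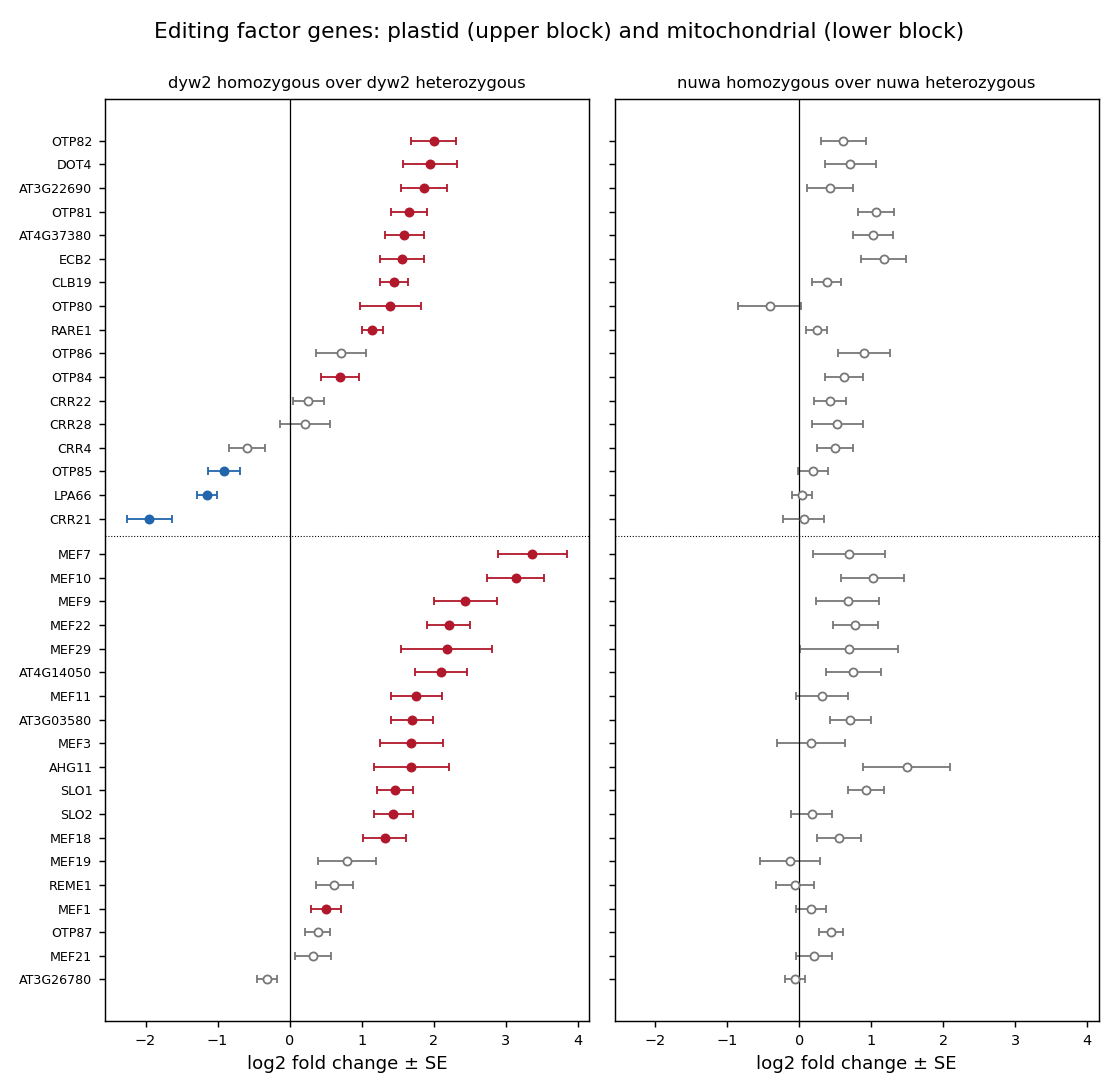
Log2 fold change ± SE of each listed locus, homozygous over heterozygous, in dyw2 (left) and nuwa (right), with plastid factors above the dotted line and mitochondrial ones below. Filled points were called, red higher and blue lower, and open grey points were not, so 27 points are filled for dyw2 and 0 for nuwa.

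The mitochondrial factors held the largest rises. MEF7, which serves sites in cob, nad2 and nad4L, had 1.28, 1.01 and 1.49 CPM in dyw2 homozygous libraries, against 0.187, 0.0555 and 0.115 CPM in dyw2 heterozygous libraries. Its log2 fold change was 3.37 ± 0.48 (± SE). MEF7 passed the filter on low counts only through the dyw2 homozygous libraries, so its call was in part set by the filter, and without a filter its log2 fold change was 3.36 (adjusted p = 6.12e-05). These levels rest on 38, 51 and 49 reads in dyw2 homozygous libraries and on 10, 3 and 7 reads in dyw2 heterozygous libraries, and leaving out 1 library at a time gave 3.03 to 3.81. MEF10, a factor for nad2, had 1.28, 0.889 and 1.21 CPM in dyw2 homozygous libraries, against 0.187, 0.0741 and 0.115 CPM in dyw2 heterozygous libraries. Its log2 fold change was 3.14 ± 0.40 (adjusted p = 4.12e-05). Every dyw2 homozygous library lay far above every heterozygous one for both genes.

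MEF9, an editing factor of nad7, had 2.29, 1.66 and 2.22 CPM in dyw2 homozygous libraries, against 0.337, 0.426 and 0.363 CPM in dyw2 heterozygous libraries. MEF22, which serves nad3, had 1.78, 1.74 and 1.88 CPM in dyw2 homozygous libraries, against 0.487, 0.315 and 0.363 CPM in dyw2 heterozygous libraries. Their log2 fold changes were 2.44 ± 0.44 (adjusted p = 0.000504) and 2.21 ± 0.30 (adjusted p = 6.6e-05). MEF22 overlaps AT3G12760 on the opposite strand over 1888 bases, and that gene, at 26.0, 25.8 and 20.4 CPM in dyw2 homozygous and 17.3, 17.3 and 18.1 CPM in dyw2 heterozygous libraries, was itself called higher by 0.46 ± 0.14. The libraries were made with a stranded kit, per the labels, but no source states that counting kept the strands separate, so reads of such partners cannot be told apart.

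SLO1 and SLO2 are factors of respiratory chain transcripts whose loss slows growth. SLO1 had 1.11, 1.13 and 1.52 CPM in dyw2 homozygous libraries, against 0.487, 0.426 and 0.445 CPM in dyw2 heterozygous libraries, a log2 fold change of 1.46 ± 0.25 (adjusted p = 0.000358). SLO2, a known partner of DYW2, had 1.78, 1.56 and 2.64 CPM in dyw2 homozygous libraries, against 0.862, 0.593 and 0.742 CPM in dyw2 heterozygous libraries, a log2 fold change of 1.44 ± 0.27 (adjusted p = 0.000757). Both sets of libraries were apart for each gene.

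Other mitochondrial factors called higher were MEF29 (nad5 and cob, log2 fold change 2.18), AT4G14050 (2.10), MEF11 (cox3 and nad4, 1.76), AT3G03580 (1.70), MEF3 (atp4, 1.69), AHG11 (nad4, 1.69), MEF18 (nad4, 1.32) and MEF1 (rps4, nad7 and nad2, 0.51). MEF3 and AHG11 passed the filter on low counts only through the dyw2 homozygous libraries, so their calls were in part set by the filter. Without a filter each gave 1.68 (adjusted p = 0.0101 for MEF3 and 0.0216 for AHG11). MEF3 rests on 9, 15 and 13 reads in dyw2 homozygous and 6, 3 and 8 in dyw2 heterozygous libraries. AHG11 rests on 9, 14 and 12 reads against 8, 2 and 6. The call of MEF1 was weak. Its adjusted p was 0.046, and it missed the threshold when any of 11 of the 12 libraries was left out, with adjusted p from 0.0526 to 0.12. Not called were MEF19 (ccmB, 0.80, adjusted p = 0.0987), REME1 (nad2 and mttB, 0.62, adjusted p = 0.0545), OTP87 (nad7 and atp1, 0.39, adjusted p = 0.068) and MEF21 (cox3, 0.33, adjusted p = 0.26). OTP87 without both disputed libraries gave 0.50 with an adjusted p of 0.0403. MEF19 lies wholly within AT3G05230 on the opposite strand.

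AT3G26780 and AT3G26782 differed. AT3G26780 had 6.69, 6.18 and 7.62 CPM in dyw2 homozygous libraries, against 7.87, 7.67 and 9.81 CPM in dyw2 heterozygous libraries, and was not called (log2 fold change -0.31 ± 0.14, adjusted p = 0.0759). AT3G26782, the repeat protein gene, had 1.45, 0.830 and 1.24 CPM in dyw2 homozygous libraries, against 0.300, 0.204 and 0.231 CPM in dyw2 heterozygous libraries. It rose by 2.24 ± 0.33 (adjusted p = 0.000114), within the range of the mitochondrial factors. Neither was called in nuwa.

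**Figure D3:**
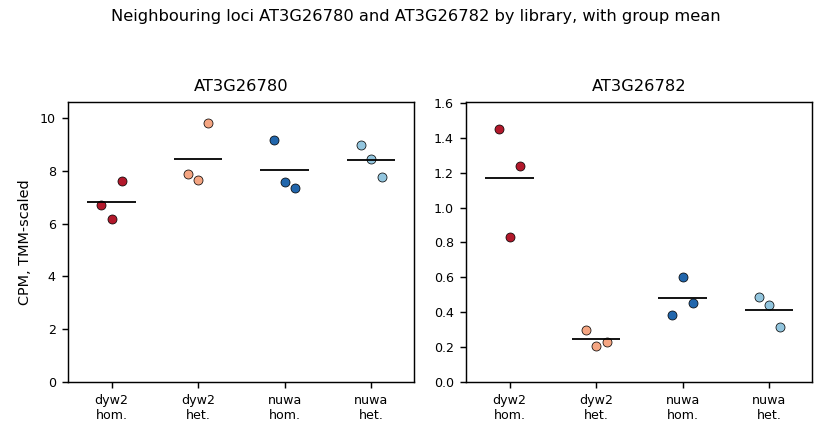
CPM of AT3G26780 (left) and AT3G26782 (right) in each library (points) with the group mean (line), on axes that start at 0. The 3 dyw2 homozygous libraries lie at 0.830 to 1.45 CPM for AT3G26782, above all other libraries, and at 6.18 to 7.62 CPM for AT3G26780.

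Among plastid factors, the rises were led by OTP82, DOT4, AT3G22690 and OTP81. OTP82, which edits ndhB and ndhG transcripts of the NDH complex, had 1.85, 1.54 and 1.34 CPM in dyw2 homozygous libraries, against 0.468, 0.426 and 0.280 CPM in dyw2 heterozygous libraries. DOT4, which serves the RNA polymerase transcript rpoC1, had 1.78, 1.24 and 1.91 CPM in dyw2 homozygous libraries, against 0.450, 0.370 and 0.445 CPM in dyw2 heterozygous libraries. Their log2 fold changes were 2.0 ± 0.31 (adjusted p = 0.000177) and 1.95 ± 0.37 (adjusted p = 0.000713). Each homozygous library was above each heterozygous one for this pair. AT3G22690 had 1.92, 1.15 and 2.03 CPM in dyw2 homozygous libraries, against 0.543, 0.389 and 0.462 CPM in dyw2 heterozygous libraries, and rose by 1.86 ± 0.32 (adjusted p = 0.000365). OTP81, a factor of rps12, had 5.52, 4.86 and 5.43 CPM in dyw2 homozygous libraries, against 2.06, 1.59 and 1.34 CPM in dyw2 heterozygous libraries, and rose by 1.66 ± 0.25 (adjusted p = 0.000128). These groups did not overlap either.

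CLB19, a known DYW2 partner that serves rpoA and clpP, had 3.63, 3.20 and 3.43 CPM in dyw2 homozygous libraries, against 1.37, 1.04 and 1.35 CPM in dyw2 heterozygous libraries, a log2 fold change of 1.45 ± 0.20 (adjusted p = 6.6e-05). RARE1, which serves accD of fatty acid synthesis, had 5.55, 4.96 and 5.71 CPM in dyw2 homozygous libraries, against 2.66, 2.35 and 2.29 CPM in dyw2 heterozygous libraries, a log2 fold change of 1.15 ± 0.15 (adjusted p = 4.96e-05). Both were higher in every homozygous library. CLB19 overlaps AT1G05760 on the opposite strand over 801 bases, and that gene was not called (log2 fold change 0.11). The remaining called rises were AT4G37380 (1.59), ECB2 (accD and ndhF, 1.56), OTP80 (rpl23, 1.40) and OTP84 (ndhB, ndhF and psbZ, 0.70). OTP84, with an adjusted p of 0.0308, lost its call without dyw2 heterozygous replicate 1 or 3 or dyw2 homozygous replicate 2 or 3 (adjusted p = 0.0543 to 0.118), and without both disputed libraries (adjusted p = 0.0819). OTP80 passed the filter on low counts only through the dyw2 homozygous libraries, so its call was in part set by the filter. Without a filter it gave 1.40 (adjusted p = 0.0208). It rests on 11, 10 and 12 reads in dyw2 homozygous and 7, 6 and 6 in dyw2 heterozygous libraries. OTP80 lost its call with the flower bud level as a covariate (adjusted p = 0.0604).

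The 3 factors called lower all served the plastid. CRR21, which edits ndhD of the NDH complex, had 1.21, 1.62 and 2.67 CPM in dyw2 homozygous libraries, against 7.29, 7.57 and 6.33 CPM in dyw2 heterozygous libraries. It fell by 1.95 ± 0.31 on the log2 scale (adjusted p = 0.000194). LPA66, the factor of psbF of photosystem II, had 3.87, 4.90 and 5.01 CPM in dyw2 homozygous libraries, against 9.56, 11.4 and 9.68 CPM in dyw2 heterozygous libraries. OTP85, which also edits ndhD, had 1.98, 2.17 and 2.82 CPM in dyw2 homozygous libraries, against 4.20, 5.39 and 3.50 CPM in dyw2 heterozygous libraries. LPA66 fell by 1.15 ± 0.14 (adjusted p = 3.15e-05) and OTP85 fell by 0.91 ± 0.22 (adjusted p = 0.00387). All homozygous libraries were below all heterozygous ones for each gene. The rosette leaf markers were lower in the same libraries, with sums of 2370 to 3900 CPM in dyw2 homozygous plants against 19700 to 27600 CPM in dyw2 heterozygous plants, and their part in these falls was not tested. With the flower bud level as a covariate all 3 stayed called lower, among 4 plastid factors called lower in that fit. That level, a mean log2 CPM of the flower bud markers, did not overlap between these groups. It was -2.5 to -1.76 in dyw2 homozygous and -0.58 to 2.53 in dyw2 heterozygous libraries. It holds no leaf marker, so that fit does not test the part of leaf RNA.

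CRR4, the third factor dedicated to ndhD, had 0.740, 1.24 and 1.15 CPM in dyw2 homozygous libraries, against 1.52, 1.93 and 1.32 CPM in dyw2 heterozygous libraries. The groups did not overlap, but the log2 fold change of -0.59 ± 0.25 missed the threshold (adjusted p = 0.0617), and it passed with the flower bud covariate (-0.83, adjusted p = 0.0405) and without nuwa homozygous replicate 2 (-0.59, adjusted p = 0.0478). CRR22 and CRR28, which serve ndhD besides other transcripts, were not called, with log2 fold changes of 0.26 (adjusted p = 0.305) and 0.21 (adjusted p = 0.619). OTP86 (rps14) was not called either (0.71, adjusted p = 0.0999), and gave 0.93 with an adjusted p of 0.047 without both disputed libraries.

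**Figure D4:**
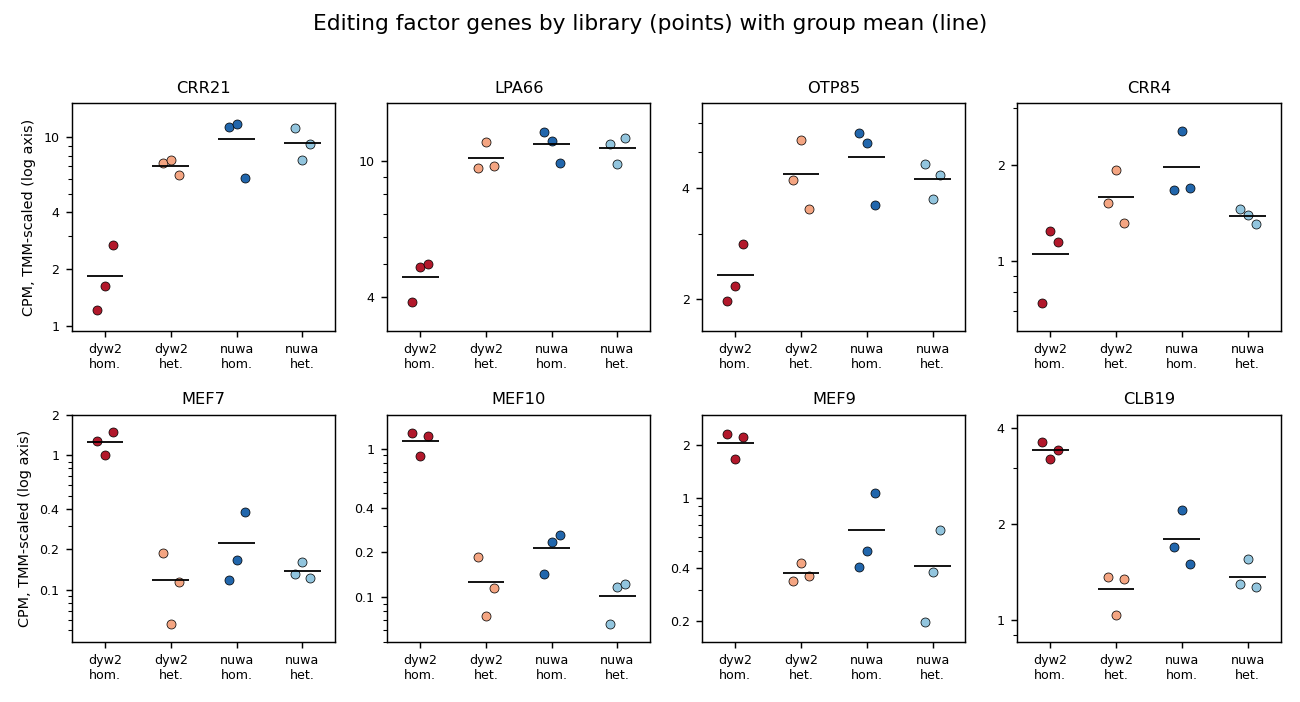
CPM of 8 editing factors in each library (points) with the group mean (line), on logarithmic axes that differ between panels. The 3 dyw2 homozygous libraries lie below all dyw2 heterozygous ones for CRR21, LPA66, OTP85 and CRR4 in the upper row, and above them for MEF7, MEF10, MEF9 and CLB19 in the lower row.

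Grouped by the end of the protein, members of each kind were called higher in dyw2, where 30.1% of all tested genes were called higher and 32.8% lower. These counts and medians include the 4 loci that passed the filter only through dyw2 homozygous libraries. Of 17 DYW-ended factors 12 were called higher and 2 lower, with a median log2 fold change of 1.59. Of 14 factors without a DYW end 9 were called higher and 1 lower, with a median of 1.42. Of 4 with an altered end 3 were called higher and 0 lower. Within the mitochondrial factors the DYW-ended ones had a median of 2.14, with 7 of 8 called higher, and those without a DYW end a median of 1.44, with 6 of 9 called higher. In nuwa 0 members of any kind were called, with medians of 0.61 for DYW-ended factors and 0.40 for those without a DYW end. No difference between these kinds was tested.

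In nuwa, 0 of the 36 loci were called by edgeR, where 1.54% of all tested genes were called higher and 0.636% lower. Of the 36, 11 had an unadjusted p under 0.05, as did 19% of all tested genes. A positive log2 fold change was seen for 32 of the 36 and for 47.5% of all tested genes, with medians of 0.52 and -0.02. DESeq2 called 3 plastid factors higher, OTP81, ECB2 and AT4G37380, where it called 3.82% of all genes higher and 2.58% lower. Without overlap between groups, 11 were higher in nuwa homozygous libraries and 0 lower, where 8.44% of all tested genes were higher and 12.7% lower in that way. In dyw2 the same count was 27 higher and 5 lower, where 34.7% and 36.1% of all tested genes were. The 27 include OTP80, MEF3, MEF7 and AHG11, which passed the filter on low counts only through the dyw2 homozygous libraries. The 5 include AT3G26780, whose annotated product is not a PPR protein.

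OTP81 came closest to a call in nuwa. It had 1.88, 3.82 and 3.38 CPM in nuwa homozygous libraries, against 1.54, 1.37 and 1.43 CPM in nuwa heterozygous libraries, and its log2 fold change was 1.06 ± 0.25 (adjusted p = 0.0526). It was called without nuwa homozygous replicate 1 (1.31, adjusted p = 0.00981) and without dyw2 heterozygous replicate 1 (1.10, adjusted p = 0.0384). ECB2, a factor of accD and ndhF, had 2.52, 2.88 and 1.71 CPM in nuwa homozygous libraries, against 1.21, 1.11 and 0.836 CPM in nuwa heterozygous libraries, a log2 fold change of 1.17 ± 0.31 (adjusted p = 0.077). It was called without nuwa homozygous replicate 3, a library with a disputed genotype (1.36, adjusted p = 0.0242), and without both disputed libraries (1.36, adjusted p = 0.031). In the fit without both, 387 of 21568 tested genes were called higher in nuwa and 1024 lower. SLO1 had 0.785, 0.939 and 0.904 CPM in nuwa homozygous libraries, against 0.572, 0.453 and 0.366 CPM in nuwa heterozygous libraries, a log2 fold change of 0.92 ± 0.25 (adjusted p = 0.0826). For OTP81, ECB2 and SLO1 every homozygous library was above every heterozygous one.

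The known NUWA and DYW2 partners CLB19 and SLO2 were closer together in nuwa. CLB19 had 1.69, 2.21 and 1.50 CPM in nuwa homozygous libraries, against 1.3, 1.55 and 1.27 CPM in nuwa heterozygous libraries (log2 fold change 0.38 ± 0.20, adjusted p = 0.317). SLO2 had 0.595, 0.838 and 0.904 CPM in nuwa homozygous libraries, against 0.814, 0.599 and 0.662 CPM in nuwa heterozygous libraries (0.17 ± 0.28, adjusted p = 0.776). The groups overlapped for both. CRR4, the ndhD factor, had 1.67, 2.55 and 1.69 CPM in nuwa homozygous libraries, against 1.45, 1.39 and 1.31 CPM in nuwa heterozygous libraries (0.50 ± 0.25, adjusted p = 0.301). The factors that fell in dyw2 had overlapping groups in nuwa, with log2 fold changes of 0.06 ± 0.28 for CRR21, 0.04 ± 0.14 for LPA66 and 0.19 ± 0.21 for OTP85. The sums over the members of each organelle were above every nuwa heterozygous library in every nuwa homozygous one. Summed plastid factors made up 94.8, 120 and 109 nuclear CPM in nuwa homozygous libraries, against 88.8, 75.0 and 89.6 in nuwa heterozygous libraries. Summed mitochondrial factors made up 20.6, 26.5 and 32.4 in nuwa homozygous libraries, against 18.9, 19.7 and 17.9 in nuwa heterozygous libraries.

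The difference between the dyw2 and the nuwa effect was tested in the same model. It was called positive for 11 of the 36 loci and negative for 4, where 40.9% of all tested genes were called, 19.2% positive and 21.7% negative. The negative ones were LPA66 (-1.19 ± 0.20, adjusted p = 0.000624), CRR21 (-2.00 ± 0.41, adjusted p = 0.00254), OTP85 (-1.10 ± 0.31, adjusted p = 0.0142) and CRR4 (-1.09 ± 0.36, adjusted p = 0.0289), a factor of psbF and 3 of ndhD. The call of CRR4 was lost without dyw2 heterozygous replicate 2, dyw2 homozygous replicate 1, nuwa heterozygous replicate 2 or 3, or nuwa homozygous replicate 2 (adjusted p = 0.0502 to 0.0737), and with thinned counts (adjusted p = 0.104). The positive ones were RARE1 (0.91 ± 0.21, adjusted p = 0.00513), MEF7 (2.68 ± 0.69), CLB19 (1.06 ± 0.28), MEF10 (2.12 ± 0.60), MEF22, SLO2, AT3G22690, OTP82, OTP80, MEF11 and MEF9. Of these, MEF7 and OTP80 passed the filter on low counts only through the dyw2 homozygous libraries, which favoured a positive difference in advance. Without a filter OTP80 lost this call (1.81, adjusted p = 0.0542). Without both disputed libraries OTP82 lost its call (1.47, adjusted p = 0.0518). Of the fits that left out 1 library, 9 lost the call of MEF9, 9 that of MEF11 and 8 that of OTP80. OTP82, AT3G22690 and SLO2 each lost it in 4, and MEF22 in 1. With thinned counts AT3G22690 (adjusted p = 0.654), MEF22 (0.629), MEF10 (0.483), MEF11 (0.383), MEF9 (0.158), SLO2 (0.0596) and OTP82 (0.0505) were not called. The count of 11 fell to 6 without dyw2 heterozygous replicate 2, dyw2 homozygous replicate 1 or dyw2 homozygous replicate 3, and to 7 when either dyw2 heterozygous replicate 3 or replicate 1 of the nuwa homozygous group was left out. Over all tested genes these fits called 3192 to 3567 differences positive, against 4074 in the main fit. Thinned to the depth of the smallest library, 3 were called positive and 3 negative, with fewer loci tested. Over all genes that fit called 3029 of 18811 positive and 3856 negative. The heterozygous groups, set against each other, had 0 of 36 loci called by edgeR and 0 by DESeq2, with 1 at an unadjusted p under 0.05. Among all genes, DESeq2 called 0.491% higher and 0.292% lower in the dyw2 heterozygous group, and by edgeR 0.132% of all tested genes were called, 0.0283% higher and 0.104% lower in the dyw2 heterozygous group.

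Levels of the editing factors were low in all groups. The median member had 0.81 CPM per kb of gene model in dyw2 homozygous, 0.339 in dyw2 heterozygous, 0.395 in nuwa homozygous and 0.257 in nuwa heterozygous libraries, against medians of 3.37, 3.22, 3.13 and 3.17 CPM per kb over all tested genes in these groups. Per kb, LPA66 was the highest PPR member in dyw2 heterozygous libraries at 4.94, followed by CRR21 at 2.83 and OTP85 at 2.15. In dyw2 homozygous libraries RARE1 was the highest at 2.39, with LPA66 at 2.23 and OTP81 at 1.93, while CRR21 was at 0.736. The order thus differed at its top, where the falling factors stood. At the lower end MEF7 had 0.421 CPM per kb in dyw2 homozygous libraries and 0.0400 in dyw2 heterozygous libraries, and AHG11 had 0.189 in dyw2 homozygous and 0.0571 in dyw2 heterozygous libraries.

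General editing factors, the partners that act beside the site-specific proteins, included both higher and lower genes in dyw2. Of 22 listed, 10 were called higher and 6 lower in dyw2, and 6 higher and 0 lower in nuwa, where all tested genes gave 30.1% higher and 32.8% lower in dyw2 and 1.54% higher and 0.636% lower in nuwa. DYW1, the DYW protein that works with CRR4 at ndhD, had 1.18, 2.01 and 2.31 CPM in dyw2 homozygous libraries, against 8.19, 10.1 and 9.48 CPM in dyw2 heterozygous libraries, and fell by 2.33 ± 0.22 (adjusted p = 4.45e-06). Also lower were the plastid factors ORRM6 (-1.76), ORRM1 (-1.17), MORF9 (-1.16) and MORF2 (-0.33), and PPO1 (-0.81). MORF2 was instead called higher in nuwa (0.52, adjusted p = 0.0416). Also called higher in nuwa were MORF1 (1.26), ORRM2 (0.71), MORF8 (0.65) and MORF3 (0.53), besides DYW2, given below. The rises in dyw2 were led by the mitochondrial MORF4, at 9.02, 7.35 and 8.95 CPM in dyw2 homozygous libraries and 1.20, 0.704 and 0.528 CPM in dyw2 heterozygous libraries (3.38 ± 0.29, adjusted p = 2.48e-06). MORF1, also mitochondrial, stood at 31.0, 30.4 and 26.8 CPM in dyw2 homozygous libraries and 6.52, 3.89 and 4.98 CPM in dyw2 heterozygous libraries (2.52 ± 0.25, adjusted p = 6.25e-06). The list of called rises in dyw2 also held MORF8 (1.76), ORRM5 (1.72), MORF6 (0.97), MORF3 (0.96), OZ1 (0.85, adjusted p = 0.0222) and MORF5 (0.71). A split of these factors by organelle was not tested. NUWA rose in dyw2 by 2.02 ± 0.36 (adjusted p = 0.00048). DYW2 rose in nuwa by 1.04 ± 0.18 (adjusted p = 0.0148) and in dyw2 by 0.67 ± 0.18 (adjusted p = 0.00561). These nuwa calls rest on the model of all 4 groups, which share the estimate of the spread. With only the 2 nuwa groups in the fit, 6 of 19753 tested genes were called higher and 0 lower, against 327 and 135 of 21213. Calls of single general factors in that fit are not given.

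**Figure D5:**
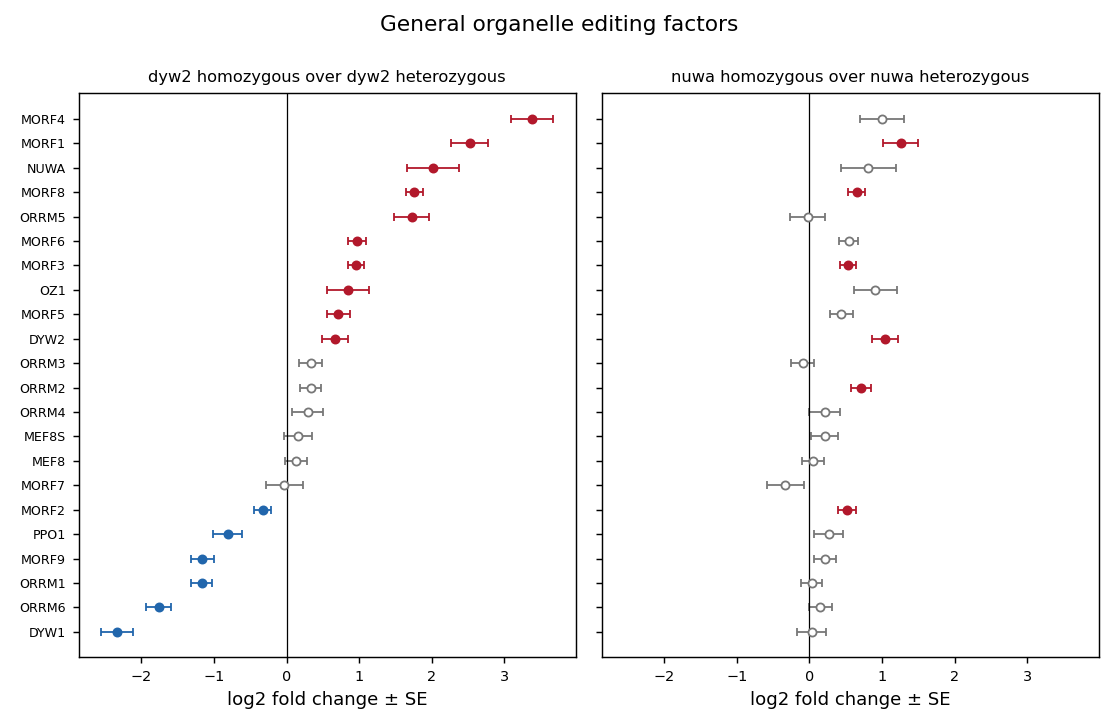
Log2 fold change ± SE of 22 general editing factors, homozygous over heterozygous, in dyw2 (left) and nuwa (right), ordered by the dyw2 value. Filled points were called, red higher and blue lower, and open grey points were not, with MORF4 at 3.38 and DYW1 at -2.33 at the ends for dyw2.

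Amounts of the transcripts that are edited could be followed for the few organelle loci that the annotation names, and the counts say nothing of editing itself. The plastid transcript clpP, a target of CLB19, had 1460, 1720 and 1620 CPM in dyw2 homozygous libraries, against 1480, 2100 and 1710 CPM in dyw2 heterozygous libraries, and was not called (log2 fold change -0.14 ± 0.19). Of the mitochondrial transcripts, a piece of nad2, a target of MEF1, MEF7, MEF10 and REME1, had 359, 394 and 369 CPM in dyw2 homozygous libraries, against 117, 122 and 102 CPM in dyw2 heterozygous libraries. It rose by 1.72 ± 0.12 (adjusted p = 9.31e-07). The target of MEF11 and MEF21, cox3, rose by 1.19 ± 0.14 (adjusted p = 2.11e-05), and atp1, the target of OTP87, by 0.72 ± 0.15 (adjusted p = 0.00131). The nad3 transcript, served by MEF22, was not called (0.33 ± 0.17, adjusted p = 0.123). It rests on far fewer reads than nad2, with 58, 115 and 92 in dyw2 homozygous and 102, 92 and 120 in dyw2 heterozygous libraries. In nuwa 0 of these 5 transcripts were called. The cob and rps4 loci had too few counts to be tested. The rise of the mitochondrial share of all counts in dyw2, given above, covers these transcripts too.

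Sequence upstream of the genes was searched for motifs known from promoters of organelle protein genes. Site II elements were searched as TGGGCC and TGGGCT on both strands in the 250 bases before each annotated gene start, where TGGGCCCA counts on each strand. Either form was in 12 of 35 members (34.3%), 6 of 17 plastid and 6 of 18 mitochondrial ones, and in 19.2% of 27443 nuclear protein-coding genes. The telo box AAACCCTA was in 1 member (2.86%) and in 4.49% of all genes. Among the members with the largest rises MEF7, MEF10, MEF22 and OTP82 held a site II element and MEF9, DOT4, AT3G22690 and OTP81 held none in this window, and CRR21, LPA66 and OTP85 held none. The 250 bases upstream of the largest rise, MEF7 at chr5:3105951-3106200 (-), and of the largest fall, CRR21 at chr5:22564588-22564837 (-), are printed 5′ to 3′ on the gene's strand from TAIR10.1 (RefSeq), with site II elements in capitals:
MEF7: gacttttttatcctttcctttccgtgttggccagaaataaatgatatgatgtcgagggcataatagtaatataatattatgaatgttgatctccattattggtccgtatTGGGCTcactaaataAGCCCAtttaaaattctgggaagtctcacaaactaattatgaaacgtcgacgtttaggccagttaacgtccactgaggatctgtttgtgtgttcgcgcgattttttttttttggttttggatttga
CRR21: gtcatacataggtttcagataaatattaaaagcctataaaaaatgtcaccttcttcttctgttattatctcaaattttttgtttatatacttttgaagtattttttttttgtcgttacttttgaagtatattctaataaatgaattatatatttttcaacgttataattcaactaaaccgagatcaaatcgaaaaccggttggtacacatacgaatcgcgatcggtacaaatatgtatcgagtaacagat
The MEF7 stretch holds TGGGCT once on each strand. A match describes these letters and does not show a working site.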

How the data were processed

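Whole-number read counts per gene model were deposited for each of the 12 libraries, not normalized, per the file headers, which also say that reads with equally good alignments were removed, so genes with identical copies lost reads. Alignment used TopHat2 with Bowtie2 on the TAIR10 build, per the submitters' processing notes. Groups follow the sample titles. Depth was 13329334 to 97804029 counts per library. Replicates of a group differed by more than sampling noise (chi-square per degree of freedom 17.32 to 123.8).

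Counts were tested with edgeR 4.0.16 (R 4.3.3): TMM, filterByExpr (minimum count 10, minimum total 15), 1 quasi-likelihood model over 4 groups with 8 residual degrees of freedom, 4 contrasts and Benjamini-Hochberg adjustment over 21213 genes. The SE is the log2 fold change divided by the root of F. CPM values are TMM-scaled, and no pseudocount was added. DESeq2 1.42.0, other scalings and filters, leaving out each library, the disputed libraries, thinning and a flower bud covariate were alternatives. The edgeR step was tested on simulated data.

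Positions, coding ends and upstream bases come from RefSeq's TAIR10.1, which matched 32835 of the 33602 gene models. The class of each protein was read from the translated coding sequence instead of a sequence table, and the class with an altered end was added after the data were seen. Members and gene lists were chosen with earlier results of these data known. Full values are given for CRR4, CRR21, CLB19, SLO1 and SLO2, for the 4 largest called rises and falls per organelle in dyw2, for members called in nuwa (there were 0) and for the 3 members with the smallest p for the difference. Other members, general factors and targets with full values were chosen after their values were seen. AT3G22690, AT4G37380, AT3G03580 and AT4G14050 carry no symbol or synonym of an editing factor in the annotation and are given by locus, and CLB19, MEF10 and MEF11 are synonyms there.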

Additional observations from a re-analysis of the deposited data

Results flagged for a closer look

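The effects of the 2 insertions differed, by the test of the difference in the edgeR model, for 15 of the 36 loci, where 40.9% of all tested genes differed, so the count is near the background share. The dyw2 effect minus the nuwa effect, on the log2 scale, was -2.00 for CRR21, -1.19 for LPA66, -1.10 for OTP85 and -1.09 for CRR4. It was 0.91 for RARE1, 1.06 for CLB19, 1.40 for OTP82, 1.44 for AT3G22690 and 1.82 for OTP80 among the other plastid factors. Among the mitochondrial factors it was 1.27 for SLO2, 1.43 for MEF22, 1.45 for MEF11, 1.77 for MEF9, 2.12 for MEF10 and 2.68 for MEF7. With thinned counts CRR4, OTP82, AT3G22690, SLO2, MEF22, MEF11, MEF9 and MEF10 lost this call. OTP80 and MEF7 passed the filter on low counts only through the dyw2 homozygous libraries. Without both disputed libraries 10 positive and 4 negative differences were called, where 4190 of 21568 tested genes were called positive and 4416 negative.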

How the results depend on the processing

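Directions held under every alternative for all called values. With groups taken from the genotype field, the dyw2 calls fell to 0 higher and 0 lower among plastid factors and 0 higher among mitochondrial ones, and the called differences between the effects fell to 0 positive and 0 negative, as did the calls of all tested genes; by construction each homozygous group then holds libraries of both titles. Thinned to the depth of the smallest library, 1 mitochondrial locus was called lower in dyw2 (AT3G26780), and 3 differences were called positive against 11, with fewer reads and 4 fewer loci tested. Over all genes that fit called 3029 of 18811 differences positive, against 4074 of 21213 in the main fit. In nuwa, against 0 in the main fit, 1 plastid factor was called higher in some fits, and it was not the same one. It was OTP81 with DESeq2 size factors and with nuclear genes only. ECB2 was the one called without both disputed libraries, and AT4G37380 the one called with the flower bud covariate. DESeq2 called all 3, and the cause was not tested.

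Leaving out each library in turn gave 9 to 10 plastid factors higher and 3 to 4 lower in dyw2, 13 to 14 mitochondrial ones higher and 0 lower, 0 to 1 plastid factors higher in nuwa, and 6 to 12 positive and 3 to 4 negative differences. Over all tested genes these fits called 3192 to 4825 differences positive and 4064 to 4791 negative. The replicate numbers were not shown to pair libraries, since same-numbered deviations correlated by 0.0895, 0.0104 and 0.00648 in dyw2 and -0.00517, 0.0573 and 0.167 in nuwa. With the replicate block, dyw2 had 9 plastid factors higher and 4 lower and 13 mitochondrial ones higher, nuwa had 0, and the difference had 9 positive and 4 negative. In that fit CRR4 was called lower in dyw2 (-0.60, adjusted p = 0.048), and OTP84 (adjusted p = 0.0513) and MEF1 (adjusted p = 0.0749) lost their calls. The stricter filter left 9 plastid and 11 mitochondrial factors higher in dyw2, with only 16 plastid and 16 mitochondrial loci tested. Depth limits members with few reads most, down to 2 reads in a library.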
